A study of Mus musculus with 6 samples.

Results

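Leptin (Lep) and other hormones and growth factors that fat cells release were followed in mature brown fat cells of mice: adiponectin (Adipoq), resistin (Retn), adipsin (Cfd), retinol binding protein 4 (Rbp4), Nampt, neuregulin 4 (Nrg4), vascular endothelial growth factor A (Vegfa), Bmp8b and Fgf21. The 10 genes were taken by symbol from the 37620 Ensembl gene rows of the count tables, whatever their values, and 8 of them had enough counts to be tested. By their labels, 3 libraries (KO) are of PHOSPHO1 knockout mice and 3 (WT) of wild-type mice, both 6 weeks old and on the C57BL/6 background. Each library pooled 3 mice. Phospho1 encodes a phosphatase that acts on phosphocholine and phosphoethanolamine. How the knockout allele was made, and in which tissues it acts, is not given in the sources used here. Brown fat was minced and treated with collagenase A, and the cells that rose into the lipid layer in a spin were taken for RNA sequencing of mRNA.

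Fat cells release proteins that tell other organs about stored energy. Leptin circulates in step with fat mass and acts on its receptor in the hypothalamus to curb feeding, and it is known as a product of white more than of brown fat. Adiponectin and adipsin are made in large amounts by fat cells of both kinds. Nrg4, Bmp8b, Vegfa and Fgf21 have been described as signals that brown fat sends to liver, nerves, vessels and other fat cells when it makes heat.

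The 6 libraries held 10576800 to 14239307 counts. Genes of the mitochondrial genome took 39.1% to 56.5% of the counts in KO-labelled libraries and 39.3% to 54.3% in WT-labelled ones. Phospho1 itself was counted 18, 15 and 17 times in the KO-labelled libraries, against 13, 5 and 5 times in the WT-labelled libraries, a log2 fold change of 1.53 at an adjusted p of 0.0563 (edgeR quasi-likelihood test). The counts of the targeted gene were thus not lower in the KO-labelled libraries. Zfp652, transcribed from the same strand, shares 89.6% of its exonic bases, and Abi3, on the opposite strand, shares 84.2%. Whether the counting used strand is not given, and whether these counts come from Phospho1 transcripts was not tested. For these reasons the groups are called KO-labelled and WT-labelled below. Longer transcripts read lower in the KO-labelled libraries: when each gene's log2 level was taken as its deviation from the mean of all libraries, its slope on log2 transcript length was between -0.25 and -0.09 in those libraries and between -0.03 and 0.31 in the WT-labelled ones. Levels below are CPM, counts of a gene divided by its library's size after scaling by the TMM method, which sets the middle of the gene-by-gene ratios between libraries to equal. The threshold was an adjusted p of 0.05 over the 12068 genes tested. Below it lay 7.52% of all tested genes with lower levels in KO-labelled libraries and 1.63% with higher levels, 9.16% in all. With offsets for the length of each gene's longest transcript and for its GC content, 0 of all genes passed as lower and 1 as higher, while 2724 had an unadjusted p under 0.05. In that fit no gene of the secreted factors or of any list described below passed. Calls also rested on single libraries: without WT-labelled library 1, 0 of all genes passed in either direction (2251 at an unadjusted p under 0.05), and without KO-labelled library 3, 0 passed as lower and 2 as higher (2672 at an unadjusted p under 0.05).

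Of the 8 secreted factors tested, Lep alone passed the threshold, and it was lower in the KO-labelled libraries. Of all tested genes, 7.52% were called lower. None of the 8 secreted factors was called higher by edgeR, DESeq2 or limma-voom. With edgeR 3 of the 8, Lep, Vegfa and Retn, had an unadjusted p under 0.05, all of them lower, a share that stands beside 30.8% of all tested genes at that level. The median log2 fold change of the 8 was -0.14, beside 0.03 over all tested genes. The groups did not overlap for Lep and Vegfa, both lower in every KO-labelled library, and 19.6% of all tested genes were lower in that way (35.4% when genes higher in that way are added).

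**Figure D1:**
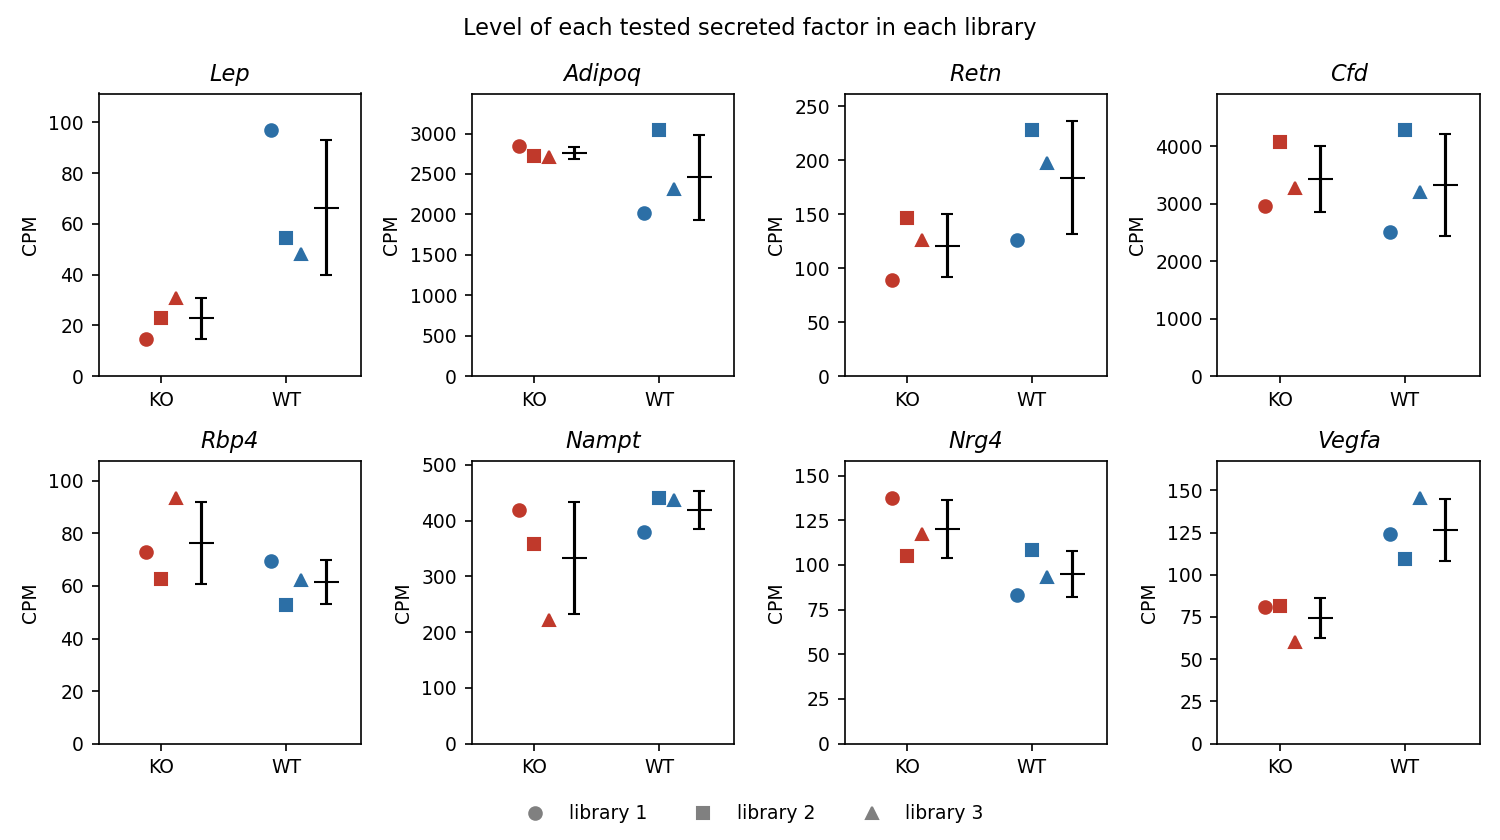
Level of each of the 8 tested secreted factors in CPM (vertical axis, each starting at 0) in the KO-labelled libraries (red) and the WT-labelled libraries (blue). Points are libraries, told apart by shape, and bars give the mean ± SD (n = 3). Lep sits between 14.8 and 30.9 CPM in KO-labelled libraries and between 48.1 and 96.8 CPM in WT-labelled ones, and Vegfa also separates the groups.

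Levels between genes were compared per kilobase of the longest annotated transcript. Cfd led in both groups, with a mean of 3728 CPM per kb in KO-labelled and 3614 CPM per kb in WT-labelled libraries. Adipoq came next, with 2137 CPM per kb in KO-labelled and 1902 CPM per kb in WT-labelled libraries. These proteins, adipsin as a protease of the complement system and adiponectin as an insulin-sensitising hormone, gave between them 87.7% to 90.2% of the counts of all 10 genes in KO-labelled libraries and 83.7% to 88.0% in WT-labelled ones. After them in both groups came Retn, Nampt, Rbp4, Nrg4 and Vegfa, with means between 105.9 and 21.5 CPM per kb in KO-labelled libraries and between 161.6 and 36.6 CPM per kb in WT-labelled libraries. Lep was last of the tested genes, with means of 7.01 CPM per kb in KO-labelled and 20.4 CPM per kb in WT-labelled libraries. In KO-labelled libraries the ranges of Retn and Nampt, of Nampt and Rbp4, and of Rbp4 and Nrg4 overlapped, so those neighbours were not told apart. In WT-labelled libraries the same held for Rbp4 and Nrg4 and for Nrg4 and Vegfa. On the median instead of the longest transcript length, Cfd and Adipoq stayed at the top and Lep at the bottom in both groups, while Nampt moved to the third place.

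Lep (ENSMUSG00000059201, chromosome 6) encodes the satiety hormone. It had 14.8, 22.8 and 30.9 CPM in the KO-labelled libraries, against 96.8, 54.3 and 48.1 CPM in the WT-labelled libraries. These levels rested on 167, 278 and 303 counts in the KO-labelled libraries, against 1717, 796 and 536 counts in the WT-labelled libraries. Every KO-labelled library lay below every WT-labelled one, and the spread within the groups was alike: the highest library was 2.09 times the lowest in the KO-labelled group and 2.01 times in the WT-labelled group. Counting error alone was 5.74% to 7.74% of the count in KO-labelled libraries and 2.41% to 4.32% in WT-labelled ones, well below that spread. The means were 22.8 ± 8.08 CPM in KO-labelled and 66.4 ± 26.5 CPM in WT-labelled libraries (SD, n = 3 each). Lep fell in the KO-labelled libraries by 1.54 on the log2 scale (SE 0.34, 95% interval -2.28 to -0.81), to 0.344 of the WT-labelled level, with an adjusted p of 0.0228 by edgeR's quasi-likelihood test. In bulk samples such as these, fewer cells that make a transcript and less of it per cell cannot be told apart.

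The fall was of middling size among the genes that fell: 379 of the 908 genes called lower had a larger one, and their median log2 fold change was -1.45. Lep's longest transcript has 3259 bases, and among the 1187 tested genes with transcripts of 2803 to 3273 bases 2.95% were called lower, with a median log2 fold change of 0.09. The direction of Lep held under all 19 other ways of processing, with log2 fold changes between -1.90 and -1.17, but the call did not. The adjusted p was 0.0631 with the offsets for longest transcript length and GC, and 0.0692 when libraries were scaled on core adipocyte genes. It was 0.152 without WT-labelled library 1, which had the highest level, 0.0718 without KO-labelled library 3 and 0.0658 without KO-labelled library 2.

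**Figure D2:**
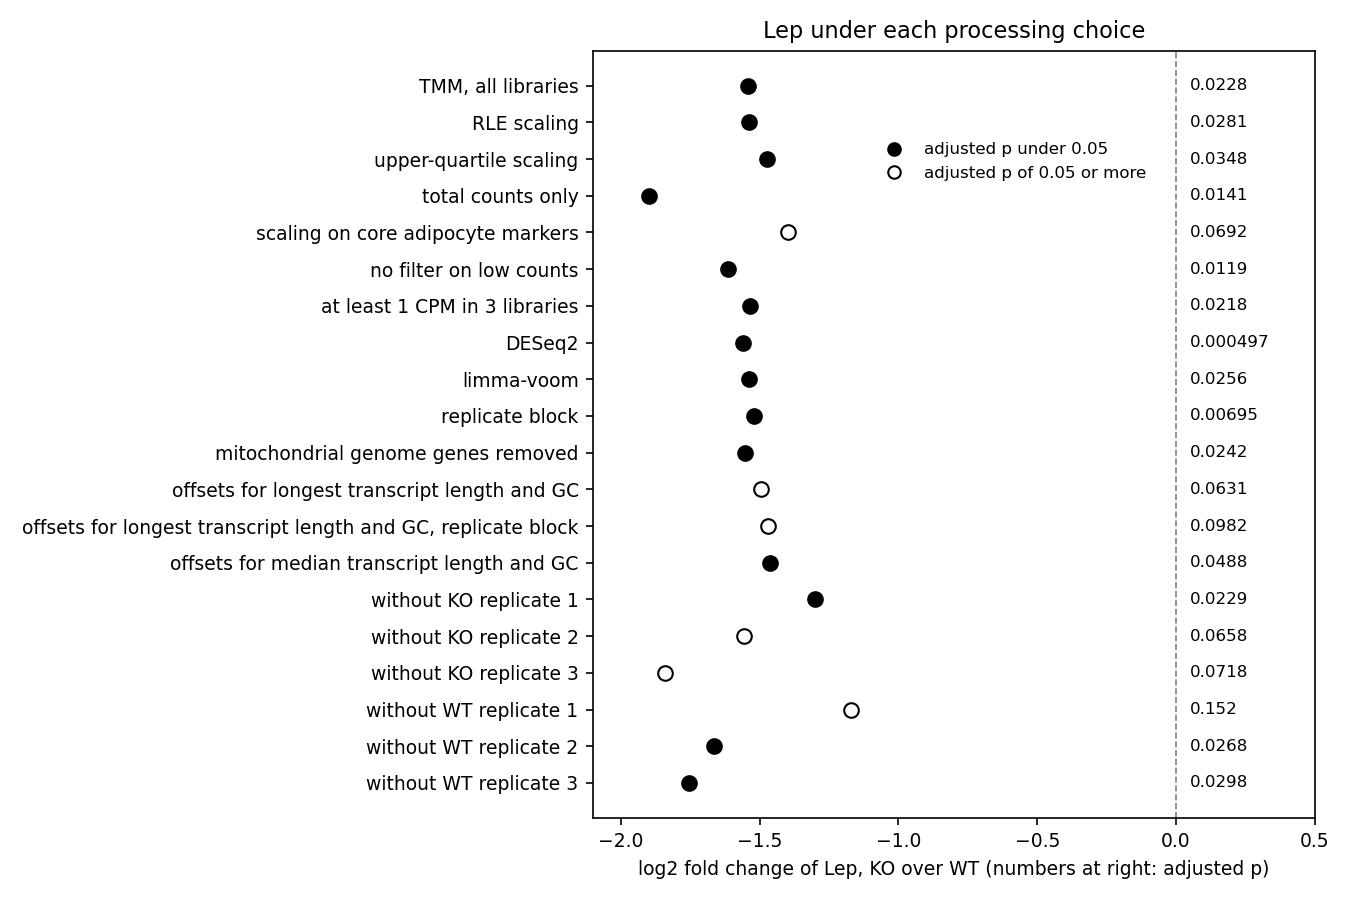
Log2 fold change of Lep, KO-labelled over WT-labelled (horizontal axis), under the analysis described and each of 19 alternatives (rows), with the adjusted p at the right. Filled points passed the threshold of 0.05 and open points did not. Every point lies left of 0, from -1.90 with total counts to -1.17 without WT-labelled library 1, and 6 of them are open.

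Because Lep is made by fat cells, its counts were also set against other fat cell transcripts of the same library. Per 1000 counts of 16 core adipocyte genes, among them Plin1, Fabp4 and Pparg, Lep had 0.509, 1.04 and 1.63 counts in the KO-labelled libraries, against 4.43, 2.03 and 1.90 in the WT-labelled libraries. The groups did not overlap on this scale, as for 13.6% of all tested genes that were lower and 19.5% that were higher, with a log2 difference of -1.44 and an exact two-sided permutation p of 0.1, the smallest that 3 against 3 libraries can give. Per 1000 Adipoq counts, Lep had 5.20, 8.37 and 11.4 counts in the KO-labelled libraries, against 48.1, 17.9 and 20.7 in the WT-labelled libraries, again without overlap. The share of all tested genes without overlap relative to Adipoq was not counted. WT-labelled library 1 stood apart from its group on both scales. The summed level of the 16 core genes was 19000 to 29000 CPM in KO-labelled libraries and 21900 to 26800 CPM in WT-labelled ones, so those ranges overlapped. Of the 16, 2 were themselves called lower, Acvr1c and Insr, beside 7.52% of all tested genes (Insr at -1.64 on the log2 scale, adjusted p = 0.0190, and -0.84 with the offsets). Fabp4 alone averaged 14990 CPM in KO-labelled and 14940 CPM in WT-labelled libraries. Plin1 averaged 240.4 and 249.4 CPM in the same groups. Levels and scaling on the core genes therefore rest mostly on Fabp4.

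**Figure D3:**
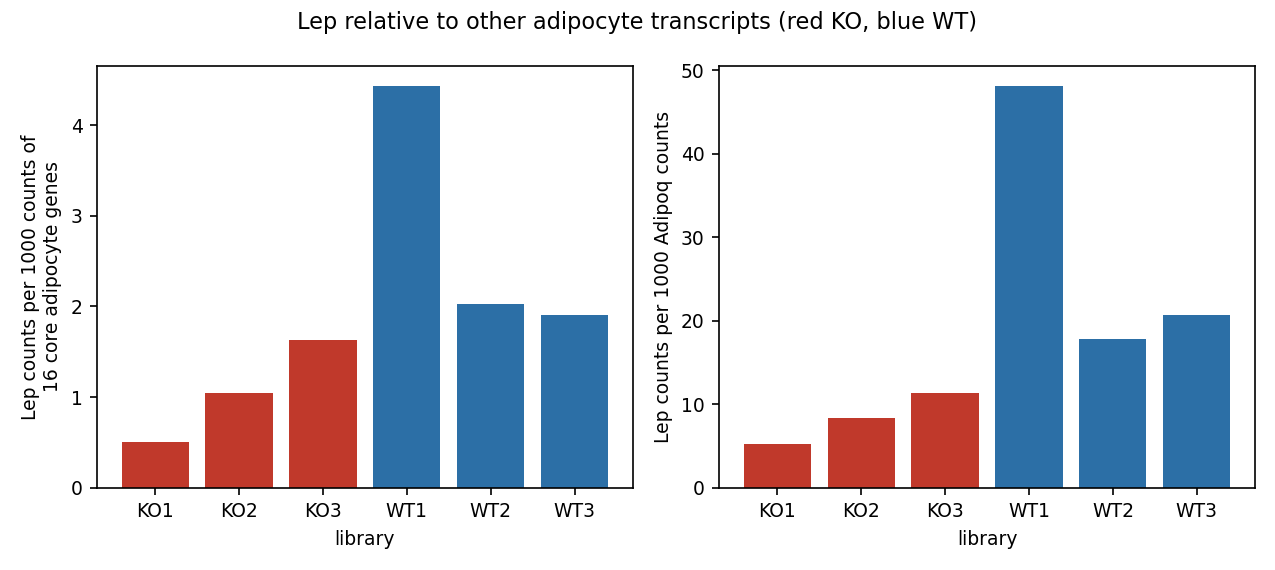
Lep counts per 1000 counts of 16 core adipocyte genes (left) and per 1000 Adipoq counts (right) in each KO-labelled library (red) and WT-labelled library (blue). Bars are single libraries and start at 0. The 3 red bars lie below the 3 blue ones in both panels, and WT-labelled library 1 is the highest, at 4.43 on the left and 48.1 on the right.

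Marker lists were summed in each library, and since abundant genes weigh most in such a sum, the members that moved are given beside it. Counts of called markers stand beside 7.52% of all tested genes called lower and 1.63% called higher. Genes known to mark white fat cells, which make much leptin, summed to 199 to 270 CPM in KO-labelled libraries and 332 to 443 CPM in WT-labelled ones, while Hoxc10 and Tcf21 of that list had no count in any library. Of its 10 tested genes 3 were lower in KO-labelled libraries: the amino acid transporter Slc7a10 (log2 fold change -1.32, adjusted p = 0.0213), the natriuretic peptide clearance receptor Npr3 (-1.28, adjusted p = 0.0230) and the nuclear receptor corepressor Nrip1 (-1.20, adjusted p = 0.0252). Mest, which marks expanding fat cells, was higher (1.41, adjusted p = 0.0414). With the offsets these values were -1.77 for Slc7a10, -0.45 for Npr3, -0.33 for Nrip1 and 1.40 for Mest. Nnat, which had the highest mean of the white fat markers, averaged 64.9 ± 28.3 CPM in KO-labelled and 125.2 ± 56.6 CPM in WT-labelled libraries. Its groups overlapped and it missed the threshold (adjusted p = 0.111). Brown fat markers summed to 8680 to 10600 CPM in KO-labelled and 6100 to 8240 CPM in WT-labelled libraries, but the median log2 fold change of their 15 tested genes was -0.09. Of these genes 3 were called lower, the deiodinase Dio2 (-2.08, adjusted p = 0.0175), Ppargc1a (-1.07, adjusted p = 0.0342) and the transcription factor Ebf2 (-0.98, adjusted p = 0.0346), and 1 higher, the cytochrome oxidase subunit Cox7a1 (1.02, adjusted p = 0.0455); with the offsets they stood at -1.32, -0.17, -0.41 and 0.30. Ucp1, the uncoupling protein that defines brown fat cells, averaged 4196 ± 588 CPM in KO-labelled and 2664 ± 545 CPM in WT-labelled libraries (SD, n = 3 each) and did not pass the threshold (adjusted p = 0.114).

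Endothelial markers summed to 1140 to 1400 CPM in KO-labelled and 931 to 1020 CPM in WT-labelled libraries, with a median log2 fold change of 0.05. Of the 15 tested, Gpihbp1 was called higher (0.97, adjusted p = 0.0380), and Ptprb (-1.52, adjusted p = 0.0226), Tek (-1.21, adjusted p = 0.0401) and Flt1 (-1.24, adjusted p = 0.0442) were called lower. Macrophage and leukocyte markers summed to 260 to 541 CPM in KO-labelled and 131 to 248 CPM in WT-labelled libraries. Much of that sum was Lyz2, the lysozyme gene, which was called higher, at 348.9 ± 135.6 CPM in KO-labelled and 129.1 ± 52.8 CPM in WT-labelled libraries (adjusted p = 0.0401), while the macrophage receptor gene Cd163 was called lower (-2.44, adjusted p = 0.0479). Cd163 had low levels, at 0.425 ± 0.369 CPM in KO-labelled and 2.47 ± 1.46 CPM in WT-labelled libraries. Stromal markers summed to 1210 to 1600 CPM in KO-labelled and 969 to 1130 CPM in WT-labelled libraries, with Ly6a (1.31, adjusted p = 0.0204) and Cd34 (0.95, adjusted p = 0.0289) called higher. Mural markers summed to 531 to 991 CPM in KO-labelled and 922 to 1370 CPM in WT-labelled libraries. Much of that sum was Rgs5, at 452.3 ± 187.8 CPM in KO-labelled and 892.3 ± 224.6 CPM in WT-labelled libraries, which missed the threshold (adjusted p = 0.077). Acta2 (0.99, adjusted p = 0.0356) and Tagln (1.02, adjusted p = 0.0414) were called higher and Abcc9 (-1.17, adjusted p = 0.0489) lower. Erythroid genes, a sign of blood, summed to 1210 to 3510 CPM in KO-labelled and 366 to 1380 CPM in WT-labelled libraries, with Hba-a1 (1.85, adjusted p = 0.0229) and Alas2 (1.42, adjusted p = 0.0414) called higher. Skeletal muscle genes summed to 60.9, 122 and 68.6 CPM in the KO-labelled libraries, against 50.6, 104 and 1070 CPM in the WT-labelled libraries, so WT-labelled library 3 alone stood apart. Of the 8 muscle genes tested none passed by edgeR, DESeq2 or limma-voom and 0 had an unadjusted p under 0.05; the smallest p-values were those of Myh4 (-4.98, adjusted p = 0.225) and Tnnt3 (-3.69, adjusted p = 0.240). The part of these markers in the levels of Lep and of the other secreted factors was not tested.

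The bases just before the transcription starts of Lep and Vegfa are shown because these are the secreted factors whose groups did not overlap. They come from RefSeq on GRCm38.p6 and run 5′ to 3′ along the gene's strand, ending at the base before the start. The Lep window is chr6:29059971-29060220 on the plus strand and the Vegfa window is chr17:46032378-46032627 on the minus strand, the first of its 2 windows. Capitals mark matches on either strand. The palindrome TTGCGCAA is known to be bound by C/EBP factors. The core of a TATA box was searched as TATAA, and the box named after its letters as CCAAT. A GC box was searched as GGGCGG. The core bound by hypoxia-inducible factors was searched as ACGTG, and it overlaps the E-box searched, which has a C before those letters.
Lep: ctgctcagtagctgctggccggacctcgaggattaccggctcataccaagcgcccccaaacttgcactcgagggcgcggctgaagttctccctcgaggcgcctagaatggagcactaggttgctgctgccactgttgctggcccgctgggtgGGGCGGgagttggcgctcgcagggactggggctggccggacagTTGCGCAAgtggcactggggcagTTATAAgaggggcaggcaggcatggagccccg
Vegfa: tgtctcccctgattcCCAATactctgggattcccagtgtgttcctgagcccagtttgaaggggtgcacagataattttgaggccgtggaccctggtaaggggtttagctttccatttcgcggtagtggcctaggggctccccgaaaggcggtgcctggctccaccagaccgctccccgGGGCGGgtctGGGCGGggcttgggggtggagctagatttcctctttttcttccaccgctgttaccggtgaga
In Lep the C/EBP palindrome begins 55 bases before the start, TATAA begins 31 bases before it with an overlapping match on the other strand, and a GC box lies 98 bases before it. Among the 32851 windows of the same length before the starts of annotated genes, 0.164% hold the palindrome, 22.8% TATAA and 32.7% GGGCGG. The Vegfa window holds CCAAT 235 bases before the start and GC boxes at 72 and 62 bases, and 33.8% of all windows hold CCAAT. The palindrome was matched in the window of Lep and in none of the windows of the other secreted factors, and the windows of Retn and Cfd held no match to any of the motifs. ACGTG was not matched in the Lep window or in the first Vegfa window, and 16.6% of all windows hold it. It was matched in the second Vegfa window, chr17:46025164-46025413 on the minus strand, whose sequence is not shown. That window lies downstream of the first Vegfa start, so its bases are not upstream of the whole gene. Whether any of these matches acts on transcription was not tested.

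The receptor and the signalling chain of leptin were examined next. Lepr, the leptin receptor, was close to absent, with 5 counts in all KO-labelled libraries together and 23 in all WT-labelled ones, too few to be tested. Of the 10 tested genes of leptin receptor signalling, none passed by edgeR or by limma-voom. With edgeR 4 had an unadjusted p under 0.05, beside 30.8% of all tested genes. DESeq2 called 3 lower, beside 11.5% of its tested genes. The smallest p-values were those of the kinase Jak2, which averaged 17.7 ± 1.06 CPM in KO-labelled and 33.1 ± 10.9 CPM in WT-labelled libraries (adjusted p = 0.0553), and of the phosphatase Ptpn11, which averaged 33.2 ± 5.80 CPM in KO-labelled and 63.7 ± 23.8 CPM in WT-labelled libraries (adjusted p = 0.0625). Their log2 fold changes were -0.90 for Jak2 and -0.94 for Ptpn11. With the offsets for length and GC they were -0.31 (adjusted p = 0.439) and -0.37 (adjusted p = 0.319). Jak2 carries out the first phosphorylation after leptin binds, and Ptpn11 encodes SHP2, an adaptor on the receptor's tail.

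Vegfa (ENSMUSG00000023951, chromosome 17), the main growth factor for blood vessels, had 81.1, 81.5 and 60.5 CPM in the KO-labelled libraries, against 124.4, 109.3 and 145.5 CPM in the WT-labelled libraries. All KO-labelled libraries lay below all WT-labelled ones, and the nearest libraries were KO-labelled library 2 and WT-labelled library 2. The means were 74.3 ± 12.03 CPM in KO-labelled and 126.4 ± 18.2 CPM in WT-labelled libraries (SD, n = 3 each), with a log2 fold change of -0.77 (SE 0.23, 95% interval -1.27 to -0.26). Its adjusted p of 0.0576 with edgeR missed the threshold, while DESeq2, which called 11.5% of its tested genes lower, gave 0.0241, and edgeR without WT-labelled library 2 gave 0.0398. The log2 fold change stayed between -0.997 and -0.647 under all alternatives. Per 1000 counts of the 16 core adipocyte genes Vegfa had 3.24 ± 0.468 counts in KO-labelled and 5.18 ± 0.945 in WT-labelled libraries, without overlap. On that scale 13.6% of all tested genes were lower without overlap and 19.5% were higher. Among the 1186 tested genes with transcripts of similar length, 3273 to 3798 bases, 3.46% were called lower.

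Of the 9 tested VEGF relatives and receptors, Flt1 was called lower, beside 7.52% of all tested genes. It averaged 16.03 ± 5.09 CPM in KO-labelled and 37.9 ± 15.04 CPM in WT-labelled libraries (log2 fold change -1.24, adjusted p = 0.0442, against -0.72 with the offsets for length and GC). Flt1 encodes a receptor that binds VEGFA tightly and is made mainly by endothelial cells, whose markers moved in both directions, as given above; limma-voom did not call it. The list's median log2 fold change was -0.25, beside 0.03 over all tested genes. Pgf, which encodes placental growth factor and binds the same receptor, averaged 39.4 ± 22.1 CPM in KO-labelled and 8.36 ± 6.24 CPM in WT-labelled libraries, but its adjusted p was 0.116; it was singled out after its values were seen. Vegfa is a classic target of the hypoxia response. Of 13 tested targets of that response, Vegfa included, edgeR and limma-voom called none, and DESeq2 called 2 higher and 1 lower. With edgeR 4 had an unadjusted p under 0.05, beside 30.8% of all tested genes. Beside Vegfa the smallest p was that of adrenomedullin (Adm), at 13.6 ± 6.58 CPM in KO-labelled and 6.08 ± 1.07 CPM in WT-labelled libraries (log2 fold change 1.152, adjusted p = 0.0557). The hypoxia targets thus did not share a direction, with a median log2 fold change of -0.02.

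Retn (ENSMUSG00000012705, chromosome 8) encodes resistin, a hormone that in mice comes mainly from fat cells and, like leptin, is richer in white than in brown fat. It had 89.3, 146.7 and 126.0 CPM in the KO-labelled libraries, against 126.4, 227.7 and 197.9 CPM in the WT-labelled libraries. The groups overlapped, since WT-labelled library 1 lay below KO-labelled library 2. The means were 120.7 ± 29.1 CPM in KO-labelled and 184.0 ± 52.1 CPM in WT-labelled libraries (SD, n = 3 each), with a log2 fold change of -0.61 (SE 0.28) and an adjusted p of 0.162. The offsets for length and GC moved the log2 fold change to -1.03, which is more than 1.5 times the value without them on this scale, with an adjusted p of 0.0771. Its transcript is short, and the median log2 fold change of the 1187 tested genes in the shortest length class was 0.59. The ratio of Lep to Retn counts was 0.166, 0.155 and 0.246 in the KO-labelled libraries, against 0.766, 0.239 and 0.243 in the WT-labelled libraries. KO-labelled library 3 lay within the WT-labelled values on this ratio, and WT-labelled library 1 stood far above all others.

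Adipoq (ENSMUSG00000022878, chromosome 16) had 2842, 2726 and 2715 CPM in the KO-labelled libraries, against 2012, 3039 and 2320 CPM in the WT-labelled libraries. The KO-labelled values lay close together, inside the wider range of the WT-labelled ones, with coefficients of variation of 2.54% in KO-labelled and 21.4% in WT-labelled libraries. The log2 fold change was 0.17 (SE 0.25, 95% interval -0.37 to 0.70, adjusted p = 0.655), and it turned to -0.09 with total counts and to -0.17 with the offsets. Of 12 tested genes for adiponectin assembly and signalling, Prkaa2 was called lower, beside 7.52% of all tested genes. It averaged 4.69 ± 2.43 CPM in KO-labelled and 15.98 ± 5.22 CPM in WT-labelled libraries (log2 fold change -1.76, adjusted p = 0.0265, and -0.77 with the offsets). Prkaa2 encodes a catalytic subunit of AMPK, the energy-sensing kinase that adiponectin receptors activate. The list's median log2 fold change was -0.42, and 0.02 with the offsets.

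Cfd (ENSMUSG00000061780, chromosome 10) had 2965, 4076 and 3270 CPM in the KO-labelled libraries, against 2508, 4278 and 3210 CPM in the WT-labelled libraries. The groups covered nearly the same range, and the log2 fold change was 0.05 (SE 0.27, 95% interval -0.55 to 0.64, adjusted p = 0.925). Its sign was not stable: it was -0.22 with total counts, -0.61 with the offsets for longest transcript and GC, -0.10 without KO-labelled library 2 and -0.13 without WT-labelled library 1. Adipsin cleaves factor B bound to C3b, the step that starts the alternative complement pathway. The factor B gene Cfb had no count in KO-labelled libraries and 1 count in WT-labelled ones.

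Rbp4 (ENSMUSG00000024990, chromosome 19), the carrier of retinol in blood, had 73.1, 62.8 and 93.5 CPM in the KO-labelled libraries, against 69.7, 52.7 and 62.1 CPM in the WT-labelled libraries. The groups overlapped, and the log2 fold change was 0.31 (SE 0.24, 95% interval -0.20 to 0.83, adjusted p = 0.375), or -0.35 with the offsets. Its partner in blood, transthyretin (Ttr), had no count in any library, and Stra6, its receptor, had 3 counts in KO-labelled and none in WT-labelled libraries. Among the 8 tested genes for retinol binding and transport, Aldh1a1, a retinaldehyde dehydrogenase, was called lower, beside 7.52% of all tested genes. It averaged 5.91 ± 1.09 CPM in KO-labelled and 13.9 ± 4.58 CPM in WT-labelled libraries (log2 fold change -1.23, adjusted p = 0.0338, and -1.30 with an adjusted p of 0.0631 with the offsets).

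Nampt (ENSMUSG00000020572, chromosome 12) encodes the rate-limiting enzyme that salvages nicotinamide for NAD, and is also released by fat cells. It had 418.7, 358.9 and 222.0 CPM in the KO-labelled libraries, against 380.2, 441.0 and 436.4 CPM in the WT-labelled libraries. KO-labelled library 3 was the lowest and KO-labelled library 1 lay within the WT-labelled range. The log2 fold change was -0.33 (SE 0.26, 95% interval -0.90 to 0.24, adjusted p = 0.397), and it turned to 0.32 with the offsets; its longest transcript has 4527 bases. Per 1000 counts of the core adipocyte genes Nampt had 14.2 ± 2.38 counts in KO-labelled and 17 ± 0.49 in WT-labelled libraries, but the nearest libraries, KO-labelled library 2 at 16.4 and WT-labelled library 2 at 16.5, were hardly apart. Of 12 tested genes of NAD synthesis and use, Cd38 was called higher, beside 1.63% of all tested genes. It averaged 71.0 ± 13.3 CPM in KO-labelled and 38.6 ± 2.81 CPM in WT-labelled libraries (log2 fold change 0.88, adjusted p = 0.0401). Cd38 encodes an enzyme that breaks NAD down and is known from leukocytes as well as fat; among the leukocyte markers 1 of 13 tested was called higher and 1 lower. With the offsets its log2 fold change was 1.32 and its adjusted p 0.0631.

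Nrg4 (ENSMUSG00000032311, chromosome 9) encodes a brown fat ligand of ErbB receptors that acts on the liver in mice. It had 137.5, 105.2 and 117.3 CPM in the KO-labelled libraries, against 83.1, 108.4 and 93.1 CPM in the WT-labelled libraries. The groups overlapped by KO-labelled library 2 and WT-labelled library 2, and the log2 fold change was 0.34 (SE 0.22, 95% interval -0.15 to 0.83, adjusted p = 0.314). It stayed above 0 under all alternatives, between 0.09 and 0.54, and passed the threshold under none. Relative to the core adipocyte genes the groups did not overlap, with 5.24 ± 0.809 counts per 1000 in KO-labelled and 3.84 ± 0.189 in WT-labelled libraries. The same held for 19.5% of all tested genes that were higher on that scale and 13.6% that were lower. Of the exonic bases of Nrg4, 6.06% are shared with Fbxo22 on the opposite strand. Its relatives Nrg1 and Nrg2 had at most 2 counts in either group, and Nrg3 had none. Of 5 tested neuregulin and ErbB genes none passed by edgeR, DESeq2 or limma-voom. With edgeR 2 had an unadjusted p under 0.05, beside 30.8% of all tested genes. These were the receptor genes Erbb4, at 1.11 ± 0.214 CPM in KO-labelled and 2.23 ± 0.716 CPM in WT-labelled libraries (adjusted p = 0.122), and Erbb3, at 1.03 ± 0.542 CPM in KO-labelled and 2.06 ± 0.202 CPM in WT-labelled libraries (adjusted p = 0.148).

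Bmp8b and Fgf21 were not detectable at this depth. Bmp8b (ENSMUSG00000002384, chromosome 4), a growth factor that raises the response of brown fat to nerves, had 1 count, in KO-labelled library 3, and none in the other libraries. Fgf21 (ENSMUSG00000030827, chromosome 7), a stress-induced hormone of liver and fat, had no count in KO-labelled libraries and a single count in each of 2 WT-labelled libraries. A limit of 3 counts over a whole group corresponds to 0.0901 CPM in the KO-labelled group and 0.0689 CPM in the WT-labelled group, so both genes lay far below Lep, and no fold change is given. Bmp8a, which is 87.4% identical to Bmp8b over 1300 aligned transcript bases, had no count in any library. Fgf21 is induced by the integrated stress response. Of 12 tested targets of that response edgeR and limma-voom called none and DESeq2 called 1 higher. With edgeR 2 had an unadjusted p under 0.05, beside 30.8% of all tested genes. The transcription factor Atf5 averaged 62.0 ± 15.6 CPM in KO-labelled and 36.1 ± 1.89 CPM in WT-labelled libraries (adjusted p = 0.0616). The mitochondrial serine enzyme Shmt2 averaged 22.4 ± 2.97 CPM in KO-labelled and 13.7 ± 2.64 CPM in WT-labelled libraries (adjusted p = 0.0911).

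Receptors for these ligands were detected. Of 13 tested genes of BMP8 and related signalling 3 receptor genes were called lower, beside 7.52% of all tested genes. Acvr1c, the type I receptor ALK7, averaged 24.9 ± 0.443 CPM in KO-labelled and 80.3 ± 19.4 CPM in WT-labelled libraries (log2 fold change -1.69, adjusted p = 0.0157). The type II receptor gene Bmpr2 averaged 2.93 ± 0.804 CPM in KO-labelled and 14.5 ± 9.53 CPM in WT-labelled libraries (-2.30, adjusted p = 0.0294), and its groups overlapped. The activin type II receptor gene Acvr2a averaged 9.86 ± 4.81 CPM in KO-labelled and 24.7 ± 4.19 CPM in WT-labelled libraries (-1.32, adjusted p = 0.0417). With the offsets these log2 fold changes were -0.57 for Acvr1c, -1.12 for Bmpr2 and -0.50 for Acvr2a, and all missed the threshold. Of 7 tested genes of FGF21 and related signalling, the growth factor genes Fgf2 and Fgf10 were called lower, beside 7.52% of all tested genes. They averaged 0.393 ± 0.0586 and 1.5 ± 0.440 CPM in KO-labelled libraries, against 2.30 ± 0.686 and 6.14 ± 3.42 CPM in WT-labelled libraries (log2 fold changes -2.52 and -2.01, adjusted p = 0.0168 and 0.0229). In the KO-labelled libraries Fgf2 lay near the level of 3 counts per library, 0.246 to 0.306 CPM. With the offsets the log2 fold changes were -1.73 for Fgf2 (adjusted p = 0.0661) and -1.46 for Fgf10 (adjusted p = 0.0845). Klb, the coreceptor that FGF21 needs, averaged 17.7 ± 7.07 CPM in KO-labelled and 29.8 ± 4.61 CPM in WT-labelled libraries (adjusted p = 0.135). In the list of receptors for the 10 secreted factors, which also holds the complement receptor genes C3ar1 and C5ar1, 4 of 20 tested were called lower. This stands beside 7.52% of all tested genes, and none was called lower with the offsets. The 4 are Acvr1c, Bmpr2, Acvr2a and Flt1, which were already counted in the BMP8 and VEGF lists. The list's median log2 fold change was -0.70, which became -0.23 with the offsets, beside 0.03 over all tested genes in both fits.

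**Figure D4:**
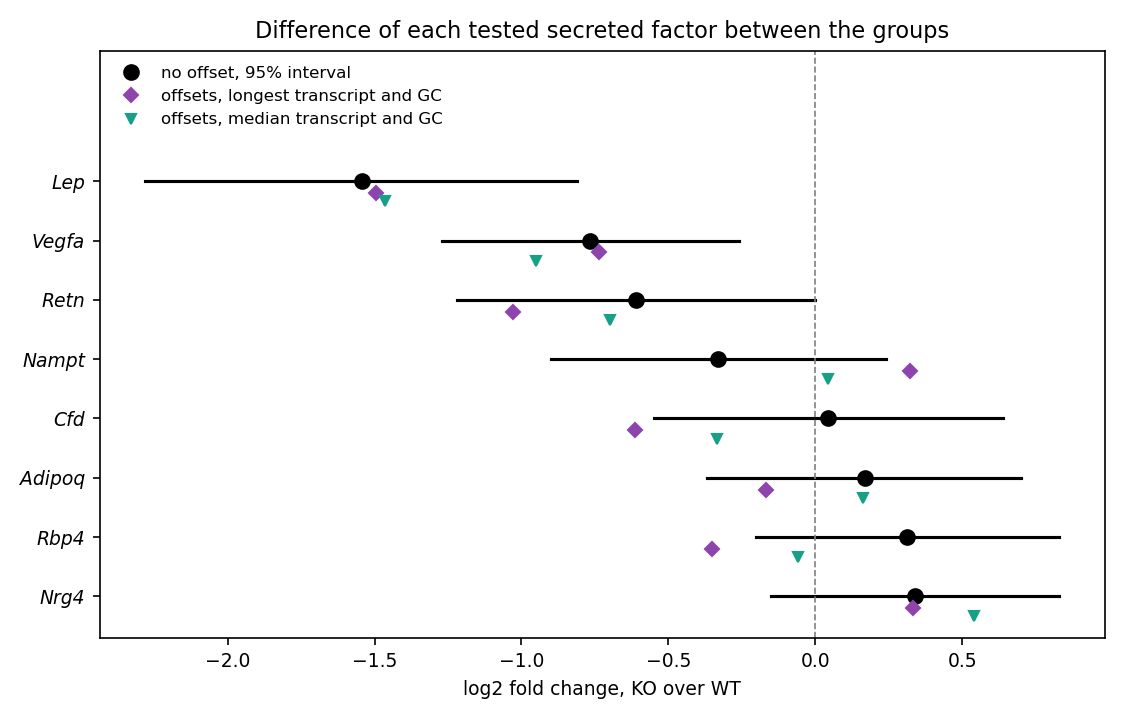
Log2 fold change, KO-labelled over WT-labelled (horizontal axis), of each tested secreted factor. Black points carry the 95% interval of the edgeR fit, and diamonds and triangles give the value with offsets for GC and the longest or the median transcript length. The points of Lep lie together near -1.5, while Nampt, Cfd, Adipoq and Rbp4 have marks on both sides of 0.

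Among 38 tested genes for other factors that fat cells secrete, 3 were called lower and 1 higher, beside 7.52% and 1.63% of all tested genes. The list's median log2 fold change was 0.23. Ceruloplasmin (Cp), a copper-binding ferroxidase, averaged 7.18 ± 0.477 CPM in KO-labelled and 28.7 ± 11.7 CPM in WT-labelled libraries (log2 fold change -1.995, adjusted p = 0.0160). Insulin-like growth factor 1 (Igf1) averaged 41.4 ± 11.1 CPM in KO-labelled and 89.5 ± 13.2 CPM in WT-labelled libraries (-1.11, adjusted p = 0.0270), but with the offsets its log2 fold change was 0.05. Enpp2, the lysophospholipase autotaxin, averaged 94.2 ± 19.4 CPM in KO-labelled and 167.4 ± 16.9 CPM in WT-labelled libraries (-0.83, adjusted p = 0.0466, and -0.64 with the offsets). Apelin (Apln), a peptide that acts on vessels and heart, was the gene called higher, at 14.4 ± 5.45 CPM in KO-labelled and 5.19 ± 1.497 CPM in WT-labelled libraries (1.46, adjusted p = 0.0265). With the offsets Cp stood at -1.33 on the log2 scale (adjusted p = 0.0631) and Apln at 1.37 (adjusted p = 0.0642).

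Transcription factors known to act on the secreted factors were also counted. Of 17 tested, 3 were called lower and none higher by edgeR, beside 7.52% of all tested genes called lower. An unadjusted p under 0.05 was found for 8, beside 30.8% of all tested genes. DESeq2 called 5 lower and 1 higher. The glucocorticoid receptor gene Nr3c1, whose ligand raises Lep in fat cells, averaged 50.6 ± 14.7 CPM in KO-labelled and 129.6 ± 31.1 CPM in WT-labelled libraries (log2 fold change -1.36, adjusted p = 0.0195). Sp1, the factor known to bind GC boxes, averaged 15.5 ± 4.87 CPM in KO-labelled and 40.0 ± 13.2 CPM in WT-labelled libraries (-1.37, adjusted p = 0.0290). Ppargc1a, the coactivator PGC-1α, averaged 17.7 ± 3.15 CPM in KO-labelled and 37.1 ± 9.38 CPM in WT-labelled libraries (-1.07, adjusted p = 0.0342). With the offsets these log2 fold changes were -0.52 for Nr3c1, -0.49 for Sp1 and -0.17 for Ppargc1a, so each moved by more than 1.5 times. Cebpa, a C/EBP factor of fat cells, averaged 282.5 ± 73.1 CPM in KO-labelled and 264.4 ± 54.2 CPM in WT-labelled libraries. Cebpb averaged 70.8 ± 18.9 CPM in KO-labelled and 41.0 ± 3.48 CPM in WT-labelled libraries (0.79 on the log2 scale, adjusted p = 0.0645). It was higher without overlap, as were 15.8% of all tested genes, and stood at 0.24 with the offsets. Cebpd averaged 26.1 ± 5.7 CPM in KO-labelled and 20.4 ± 12.2 CPM in WT-labelled libraries, with overlap. Pparg, the master regulator of fat cells, averaged 233.3 ± 15.1 CPM in KO-labelled and 258.4 ± 26.6 CPM in WT-labelled libraries. Cebpa, Cebpb, Cebpd and Pparg all missed the threshold with edgeR.

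**Figure D5:**
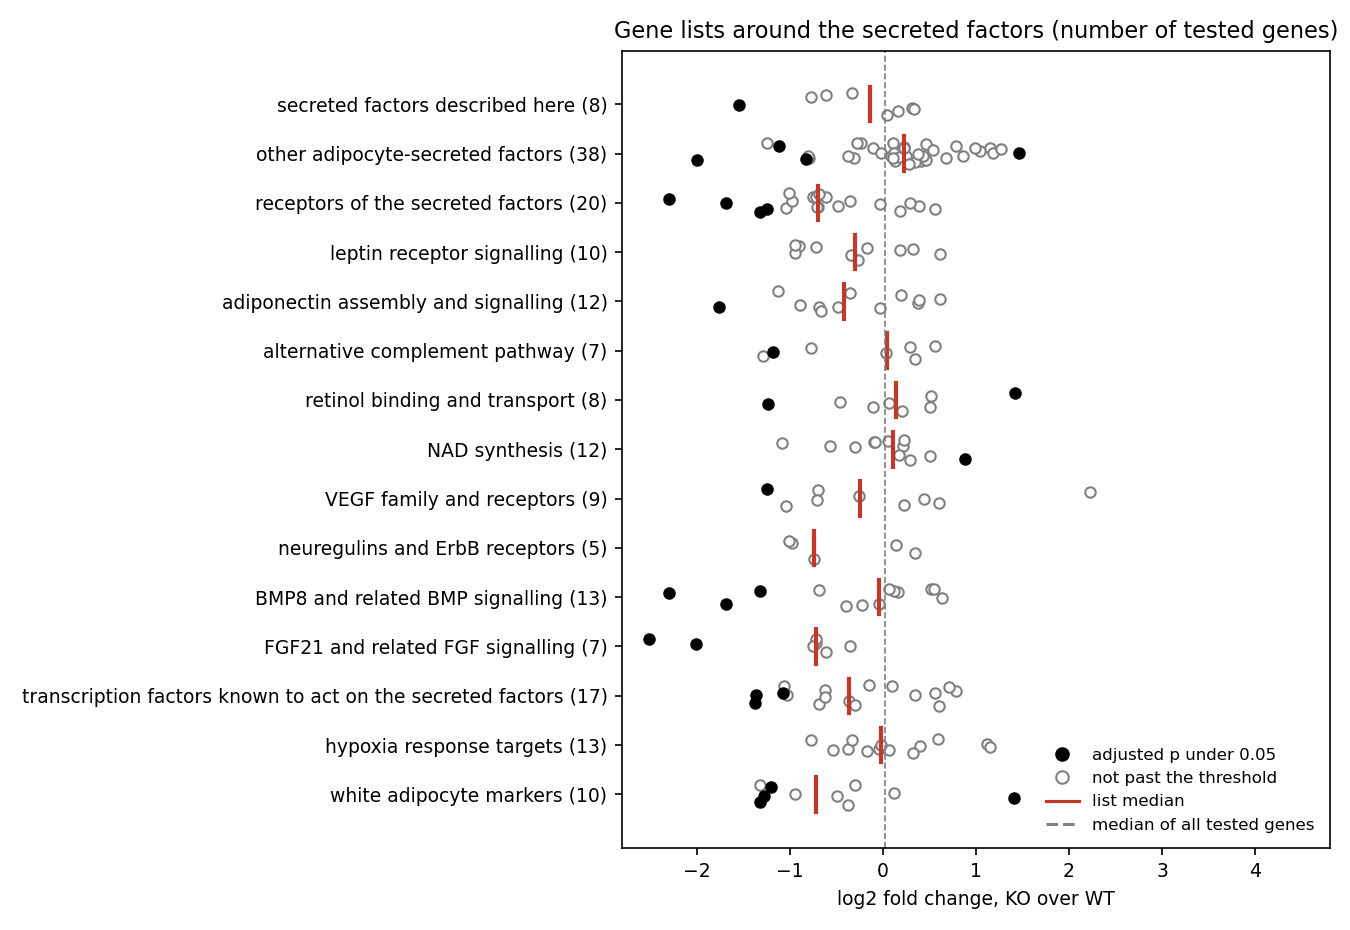
Log2 fold change, KO-labelled over WT-labelled (horizontal axis), of every tested gene of the secreted factors and of the lists around them (rows, with the number of tested genes). Filled points passed an adjusted p of 0.05, red bars are list medians and the dashed line is the median of all tested genes, 0.03. The receptor list has its median at -0.70 with 4 filled points, all left of 0.

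Across the 6 libraries, the genes whose log2 levels ran most like those of Lep were Mettl16 (Pearson r = 0.99), Gbp7 (0.989), Ppp3ca (0.982), Zbtb38 (0.978) and Pcf11 (0.976), out of 6034 genes with a mean of at least 10 CPM. These values describe 6 libraries that share their depth and scaling and fall into the same groups, and they carry no test. Mettl16 had 10.1, 11.2 and 12.5 CPM in the KO-labelled libraries, against 17.3, 15.6 and 14.9 CPM in the WT-labelled libraries, the same order of libraries as Lep over a narrower range. Of these 5 genes Ppp3ca (log2 fold change -1.42, adjusted p = 0.0190) and Gbp7 (-1.29, adjusted p = 0.0498) were called lower.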

How the data were processed

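RNA of 6 libraries, 3 per group and each a pool of 3 mice, was sequenced after preparation with the KAPA Hyper mRNA kit, per the labels. The deposited tables hold whole-number read counts per Ensembl gene, made by the authors; the submitters' processing notes name STAR 2.5.4b and mm9, while the counting program and whether it used strand were not given in the sources used here. Totals were 10576800 to 14239307 counts per library. That the pools within a group came from separate mice is not stated, so p-values measure the spread between these libraries. The 95% intervals come from the edgeR fit and also measure that spread. The floors and the counting error of Lep rest on counts alone.

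Symbols and transcript lengths came from GENCODE release M21 by gene ID (32897 of 37620 IDs matched), and promoter windows from RefSeq on GRCm38.p6. Genes passing edgeR's filterByExpr (minimum count 10, total 15) were tested with edgeR 4.0.16 (TMM, robust quasi-likelihood F test, two-sided, Benjamini-Hochberg over 12068 genes, threshold 0.05). Offsets were smooth terms in log length and GC (mgcv 1.9.3), fitted on 11863 genes with both values. Alternatives used other scalings and filters, DESeq2 1.42.0, limma-voom 3.58.1, a replicate block and leaving out each library. On simulated counts for this comparison (11819 genes tested), 84.7% of genes changed 4-fold, 15.5% of genes changed 2-fold and 0.103% of unchanged genes were called. Those simulated counts held no trend on transcript length or GC, unlike the libraries, so they do not give the share of false calls in these data.

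The secreted factors and all gene lists were chosen with earlier results of these data known. All 10 secreted factors are described; in each list genes past the threshold are named, up to 4 per direction by p, or the 2 of smallest p where none passed, and the 5 genes with the highest Pearson r to Lep (log2 of CPM + 0.5) are named, leaving out predicted genes and pseudogenes. Cebpa, Cebpb, Cebpd, Pparg, Lepr, Cfb, Ttr, Stra6, Klb, Ucp1 and other genes outside this rule are named for their role. Pgf was singled out after its values were seen. Some genes of the complement and retinol lists that the rule would name are not reported here.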

Additional observations from a re-analysis of the deposited data

How the results depend on the processing

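Of the secreted factors called lower, 1 with all libraries, the count was 0 with scaling on core adipocyte genes and with offsets for longest transcript length and GC with or without the replicate block, 2 with DESeq2 (Lep and Vegfa), and between 0 and 2 when 1 library was left out: 0 without KO-labelled library 2 or 3 or WT-labelled library 1, and 2 without WT-labelled library 2. No alternative called a secreted factor higher. Lep kept its direction in all 19 alternatives and its call in 13; it had a log2 fold change of -1.40 with core adipocyte scaling, -1.50 with the offsets and -1.47 with offsets and the replicate block (adjusted p = 0.0982), and between -1.84 and -1.17 when a library was left out. The replicate block alone gave Lep -1.52 (adjusted p = 0.00695) and moved the calls of all genes to 976 lower and 223 higher; same-numbered libraries had correlations of 0.145, -0.534 and 0.032 between their deviations from the group means, so the numbers were not taken to pair the libraries, and not every library correlated best with its own number. Counts over all genes, 908 lower and 197 higher, were 1389 and 29 with total counts, 410 and 91 with core scaling, 136 and 82 with offsets on the median transcript length, 0 and 1 with offsets on the longest and 0 and 0 when the block was added (2421 genes at an unadjusted p under 0.05), 493 higher with DESeq2, and 0 to 1383 lower and 0 to 688 higher when a library was left out, the smallest without WT-labelled library 1, where 2251 genes had an unadjusted p under 0.05. The share of calls that were higher was 17.8% with all libraries, 2.05% with total counts, 37.6% with median-length offsets and 33.2% without WT-labelled library 2. Over all genes the middle log2 fold change was -0.23 with total counts and 0.14 with core scaling, against 0.03 with TMM. Adipoq turned to -0.089 with total counts, -0.17 with offsets and -0.17 with offsets and block; Cfd to -0.22, -0.61 and -0.64 under the same settings, -0.34 with median-length offsets and as far as -0.13 when a library was left out (highest 0.27); Rbp4 to -0.35, -0.31 with the block and -0.059 with median-length offsets; Nampt to 0.32, 0.33 with the block and 0.045 with median-length offsets. The causes were not tested. Retn and Nrg4 kept their direction and stayed short of the threshold in all alternatives, and Vegfa kept its direction. Depth limits what can be said of Bmp8b and Fgf21.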
